A study of Mus musculus with 100 samples.

Results

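ERK1 occupancy of chromatin was measured by ChIP-seq at day 0 and day 4 of osteoclast differentiation in 4 of the 100 samples of the series, and all 14957 regions in which tags of those libraries were counted are described here. The libraries were taken by the antibody and day in their labels, 2 per day, without use of their values. Bone marrow cells of young adult C57BL/6 wild type mice were cultured with M-CSF as osteoclast precursors (the day 0 group) or with M-CSF and RANKL for 4 days (the day 4 group). The paper used Ncor floxed mice as wild type controls of its NCoR knockout. The label wild type does not say whether the mice of these libraries were floxed. The cultures were adherent bulk cells, fixed with disuccinimidyl glutarate and formaldehyde. The labels give no sex of the mice, and the matching input libraries were not analysed here. The description of day 4 replicate 2 numbers it as a replicate 3, carries a later date code than the other 3 libraries and lacks the NCoRWT tag that they share, although its genotype label is also wild type. For that library the date code and the day cannot be told apart, so each day 4 library is given separately.

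ERK1 (Mapk3) is a serine/threonine kinase at the end of the RAF, MEK, ERK cascade, and in the nucleus it phosphorylates transcription factors, among them ETS proteins and AP-1 members of the Fos and Jun families. RANKL binds its receptor RANK on precursors, TRAF6 then activates NF-kappaB and MAP kinases, and NFATc1 finally turns on genes for cell fusion, acid secretion and digestion of bone matrix. A ChIP peak marks chromatin that was crosslinked to the protein directly or through partners.

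Sequences are shown for 8 peaks that the results turn on, as 200 bp around the peak centre from the plus strand of the mm10 genome. The first 3 are the strongest peaks of osteoclast genes, the next 4 were called higher at day 4 and the last was called lower. Capitals mark matches on either strand to AP-1 (TGANTCA), PU.1 (GAGGAAG), C/EBP (TTGCNNAA) or E-box (TCATGTG) letters.
Ctsk (chr3:95511849-95512048): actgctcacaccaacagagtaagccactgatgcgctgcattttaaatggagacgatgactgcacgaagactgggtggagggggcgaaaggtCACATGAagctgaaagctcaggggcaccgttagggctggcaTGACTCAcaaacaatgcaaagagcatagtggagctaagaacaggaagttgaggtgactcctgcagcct
Ocstamp (chr2:165402004-165402203): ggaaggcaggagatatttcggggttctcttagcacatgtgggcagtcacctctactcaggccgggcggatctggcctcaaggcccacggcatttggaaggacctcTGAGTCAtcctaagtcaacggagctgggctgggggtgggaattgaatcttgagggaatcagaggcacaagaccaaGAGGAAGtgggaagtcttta
Atp6v0d2 (chr4:19918977-19919176): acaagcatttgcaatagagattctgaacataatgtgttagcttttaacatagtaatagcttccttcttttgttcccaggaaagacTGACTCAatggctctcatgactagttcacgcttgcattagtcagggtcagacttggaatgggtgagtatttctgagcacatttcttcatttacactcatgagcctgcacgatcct
Src (chr2:157402945-157403144): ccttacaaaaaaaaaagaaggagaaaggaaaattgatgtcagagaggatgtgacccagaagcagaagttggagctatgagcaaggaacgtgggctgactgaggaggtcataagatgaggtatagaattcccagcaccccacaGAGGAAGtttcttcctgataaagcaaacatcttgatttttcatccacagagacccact
Fosl2 (chr5:32104209-32104408): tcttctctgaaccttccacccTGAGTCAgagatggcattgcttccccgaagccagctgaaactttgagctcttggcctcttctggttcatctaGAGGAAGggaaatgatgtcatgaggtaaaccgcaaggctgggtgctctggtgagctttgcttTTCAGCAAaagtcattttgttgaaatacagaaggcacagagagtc
Plxdc1 (chr11:97971325-97971524): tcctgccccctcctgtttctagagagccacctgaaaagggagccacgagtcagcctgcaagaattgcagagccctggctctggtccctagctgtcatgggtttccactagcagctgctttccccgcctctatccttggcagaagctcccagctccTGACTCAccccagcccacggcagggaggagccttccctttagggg
Scarletltr (chr9:64092186-64092385): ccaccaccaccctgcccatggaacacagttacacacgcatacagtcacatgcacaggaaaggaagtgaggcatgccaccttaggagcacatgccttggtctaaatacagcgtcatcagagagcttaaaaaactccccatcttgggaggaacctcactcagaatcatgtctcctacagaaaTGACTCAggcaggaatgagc
Il6st (chr13:112393606-112393805): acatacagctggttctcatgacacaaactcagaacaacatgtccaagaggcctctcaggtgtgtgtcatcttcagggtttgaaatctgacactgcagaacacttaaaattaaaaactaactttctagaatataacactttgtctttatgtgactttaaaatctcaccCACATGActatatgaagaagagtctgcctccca
AP-1 letters were in 6 of the 8 windows, all but those of Src and Il6st. The 8 were chosen and do not stand for all ERK1 windows, of which 24.3% held these letters. Among other named osteoclast genes, the strongest peaks of Acp5, Dcstamp, Mmp9, Tcirg1 and Nfatc1 lacked them and that of Tnfrsf11a held them. PU.1 letters were in those of Ocstamp, Src and Fosl2, C/EBP letters in that of Fosl2, and the E-box in those of Ctsk and Il6st.

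More of the ERK1 tags fell in peaks at day 4. Library totals were 11.6 and 9.52 M tags at day 0 and 6.43 and 8.37 M at day 4. Peaks held 2.79% and 2.98% of them at day 0, against 6.46% and 4.5% at day 4. The mean was 2.88% ± 0.132 at day 0 and 5.48% ± 1.38 at day 4 (SD, n = 2), 1.9 times as high. Both day 4 libraries lay above both day 0 libraries, and the two-sided exact permutation p was 0.333, the smallest that 2 against 2 allows. The regions were listed from these same libraries, 9652 at day 4 only and 2490 at day 0 only. That listing favours a higher share at day 4, so these values are only a description. Peaks were 200 to 831 bp wide with a median of 260 bp, and the median peak held 20 and 17 tags at day 0 and 25 and 23 at day 4, so a single peak rests on few tags. Scaled to tags per 10 M of the library, the unit of every level below, the median peak stood at 17.2 and 17.9 at day 0 and at 38.9 and 27.5 at day 4. More cells with a bound site, more ERK1 per cell and a difference between library preparations cannot be told apart in bulk chromatin.

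**Figure D1:**
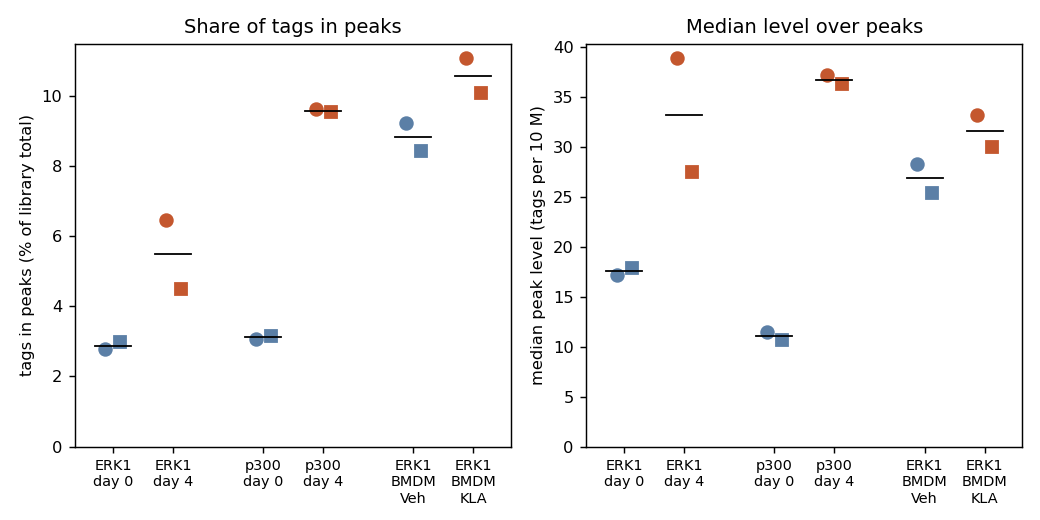
Share of each library's tags in peaks (% of its total) and median level over peaks (tags per 10 M), with circles for replicate 1, squares for replicate 2 and black lines for means, for ERK1 and p300 at day 0 (blue) and day 4 (orange) and for ERK1 in macrophages with vehicle or KLA. The ERK1 day 4 libraries sit at 6.46% and 4.5%, both above the ERK1 day 0 libraries. Of the 14957 ERK1 peaks, 9652 were listed at day 4 only.

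Most ERK1 peaks had a higher level at day 4. The log2 fold change had a median of 0.93 over all peaks and was above 0 in 89% of them. It was above 0 in 43.6% of the peaks listed at day 0 only, 94.4% of those at both days and 99.2% at day 4 only. Listing used the level at that day in these same libraries, so these shares are only a description. Each day 4 library showed an upward shift over all peaks. Against the mean of the day 0 libraries the median log2 ratio was 1.18 in replicate 1 and 0.69 in replicate 2. With edgeR's quasi-likelihood test and library totals as the scale, 348 peaks rose (2.33% of those tested) and 4 fell (0.0267%), at a Benjamini-Hochberg adjusted p below 0.05 and more than a 2-fold change. These are the peaks named as called. At an unadjusted p below 0.05, 4659 were higher and 123 lower.

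With the scale centred on the peaks the shift was taken out, and no peak was called. The median was 0.034 with TMM factors and 0.083 with the tags in all peaks as library sizes. EdgeR then called 0 peaks in both directions under either scale, and the Wald test of DESeq2 with its own size factors also called 0. At an unadjusted p below 0.05, 782 were higher and 1042 lower with TMM, 901 and 919 with the tags in all peaks, and 547 and 895 with DESeq2. Every call named below therefore holds for library totals and not for these scales. Of the 38 named peaks called higher that had tags at day 0, the log2 fold changes ran from 2.13 to 4.27 with library totals and from 1.30 to 3.67 with TMM, where the lowest adjusted p was 0.18. The calls also rest on both day 4 libraries. Without day 4 replicate 2, which leaves libraries of 1 date code, 0 peaks were called at a median of 1.13, with 4423 higher and 127 lower at an unadjusted p below 0.05. Without day 4 replicate 1, 0 were called at a median of 0.66, with 1576 and 253. The lone library was assumed to vary like the pair of the other day. Without day 0 replicate 1 or 2, 1054 or 1160 peaks were called higher.

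Counted by library, with no model, 9602 peaks (64.2%) had both day 4 levels above both day 0 levels, and 666 (4.45%) had both below. Of the 9602, 7838 were listed at day 4 only, and of the 666, 631 at day 0 only. A gap of more than 2-fold between the days was present in 2929 peaks (19.6%) in the upward and 134 (0.896%) in the downward direction. With TMM scaling these were 640 and 652, a near even split. Of the 348 peaks called higher, 347 had such a gap. The calls and the gap use the same 4 libraries, so this count is no separate support for the calls.

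Nearly all of the calls fell in peaks found at day 4 alone, which follows largely from how peaks were listed. The authors kept peaks that were reproducible between the replicates of a day and merged the days: 9652 peaks were listed at day 4 only, 2490 at day 0 only and 2815 at both. Median log2 fold changes were 1.20, −0.10 and 0.66. Listing depends on the level at that day in these same libraries. These medians, and the split of the calls by list, are therefore only a description. Of the peaks called higher, 346 were listed at day 4 only and 2 at both days, and all 4 called lower were listed at day 0 only. Peaks of both lists had the highest levels, with medians of 28.4 and 30.5 at day 0 and 56 and 38.2 at day 4. By position, the 3466 peaks within 2 kb of a transcription start had a median log2 fold change of 0.85, with 52 called higher, and the 11491 distal peaks one of 0.95, with 296 called higher and 4 lower.

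Replicate libraries agreed moderately. Across the 14957 peaks, which share libraries and depth and are not independent, Pearson's r of log2(level + 1) was 0.49 between the day 0 libraries, 0.48 between the day 4 libraries and 0.18 to 0.21 across days. The log2 ratio of the replicate 1 libraries and that of the replicate 2 libraries, which have no library in common, gave 0.36.

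**Figure D2:**
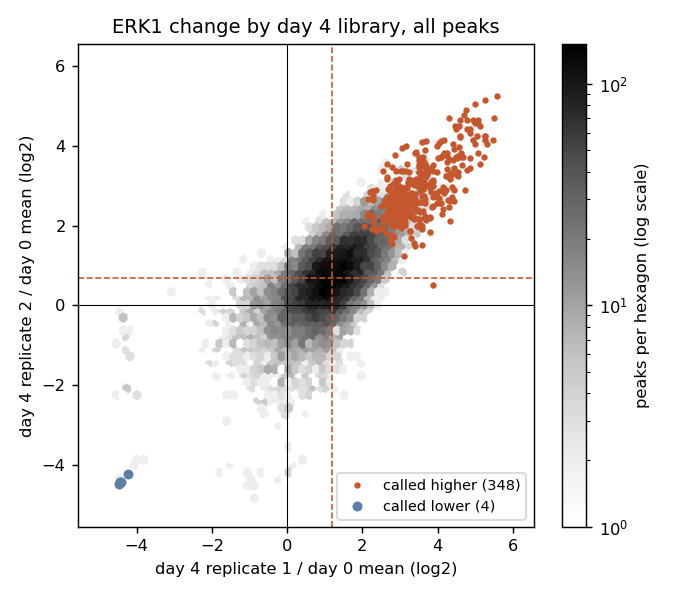
Log2 ratio of each day 4 library to the mean of the day 0 libraries, replicate 1 on one axis and replicate 2 on the other; grey hexagons count all 14957 peaks on a log scale, orange points are the 348 peaks called higher and blue points the 4 called lower. Dashed lines mark the medians of 1.18 and 0.69, so that most peaks lie above 0 in both libraries.

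Osteoclast genes carried ERK1 peaks, and 0 of their 44 peaks were called. As 2.33% of all peaks were called higher, 0 of 44 is close to that share. Strongest peaks were picked by their levels over all 4 libraries, while peaks called higher had day 0 medians of 2.58 and 3.15. Of 18 genes for fusion and resorption, 15 were the nearest gene of a peak, while Ostm1, Car2 and Calcr were not. The strongest peak of each gene had a log2 fold change between 0.12 and 1.42, with a median of 0.94 beside 0.93 over all peaks, and with TMM scaling this median was 0.020 and 8 of the 15 were above 0. DESeq2 called 0 peaks of the whole table, so its 0 in any gene list was fixed beforehand. EdgeR called 0 of the 15, and 6 had an unadjusted p below 0.05, beside 4659 higher and 123 lower of all 14957 peaks. In 9 of them both day 4 levels lay above both day 0 levels, as in 64.2% of all peaks. Over all 44 peaks of these genes the median was 0.94, and 9 (20.5%) had a gap over 2-fold, a share near the 19.6% of all peaks.

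Fusion and marker genes came first. Acp5 encodes the tartrate-resistant acid phosphatase of osteoclasts, and its only peak lay at the promoter (chr9:22131245-22131446, 520 bp from the start). Its levels were 12.1 and 6.3 at day 0 and 26.4 and 28.7 at day 4, without overlap, and the log2 fold change was 1.37 ± 0.63 (SE, adjusted p = 0.144). Ocstamp encodes a membrane protein of precursor fusion, and its strongest peak lay 1710 bp upstream of the start (chr2:165401961-165402248). It had levels of 16.4 and 14.7 at day 0 and 63.8 and 27.5 at day 4, or 1.42 ± 0.60 (SE, adjusted p = 0.122). Both day 4 levels were higher than day 0, that of replicate 1 by more than that of replicate 2. Dcstamp, the other fusion protein gene, had 32.7 and 51.5 at day 0 and 60.7 and 50.2 at day 4 in an intron, where the days overlapped (0.38 ± 0.51, adjusted p = 0.577).

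Genes for acid secretion and matrix digestion gave a similar range. Atp6v0d2 encodes a V-ATPase subunit needed for osteoclast fusion and acid secretion, and its intronic peak (chr4:19918971-19919184) had 27.5 and 16.8 at day 0 and 57.6 and 57.3 at day 4 (1.28 ± 0.54, adjusted p = 0.12). Tcirg1 encodes the osteoclast proton pump subunit whose loss causes osteopetrosis, and its promoter peak had 37.9 and 15.8 at day 0 and 73.1 and 59.7 at day 4 (1.23 ± 0.54, adjusted p = 0.132). In neither did the days overlap, and neither was called. Ctsk encodes cathepsin K, the main collagen-degrading protease of osteoclasts. Its strongest peak, 12739 bp downstream of the start (chr3:95511779-95512119), had 36.2 and 50.4 at day 0 and 90.2 and 75.3 at day 4 (0.90 ± 0.49, adjusted p = 0.193), again without overlap. Mmp9 encodes a gelatinase, and its peak 5137 bp upstream had 60.3 and 37.8 at day 0 and 126 and 37 at day 4 (0.69 ± 0.55, adjusted p = 0.346). Here day 4 replicate 1 was the highest and replicate 2 the lowest of the 4 libraries.

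**Figure D3:**
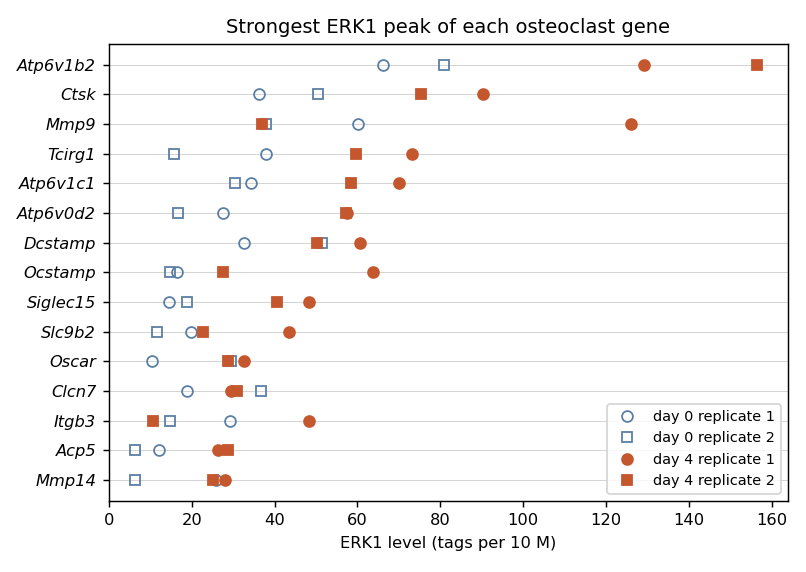
Level of the strongest ERK1 peak of each of the 15 osteoclast genes (tags per 10 M), with open blue symbols for day 0, filled orange symbols for day 4, circles for replicate 1 and squares for replicate 2. Both day 4 symbols lie right of both day 0 symbols in 9 of the 15 genes, beside 64.2% of all peaks of the table.

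Among genes of RANK signalling, the receptor and the master regulator had small differences at their strongest peaks. Tnfrsf11a, which encodes RANK, had 53.4 and 60.9 at day 0 and 70.0 and 70.5 at day 4 at a peak 38031 bp upstream of the start (0.29 ± 0.48, adjusted p = 0.649). Nfatc1, the factor at the head of the osteoclast programme, had 30.1 and 18.9 at day 0 and 18.7 and 45.4 at day 4 (0.37 ± 0.60, adjusted p = 0.647), with the day 4 libraries on either side of day 0. Of 30 genes of this list 25 had a peak and Traf6, Fosl1, Nfkb2, Esrra and Ppargc1b had none. The strongest peaks had a median of 0.76, or −0.18 with TMM, and 0 of them were called by edgeR, with 6 at an unadjusted p below 0.05.

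The lowest p values of that list belonged to Tfe3, Junb and Rela. Tfe3, a factor of the MITF family, had 2.58 and 5.25 at day 0 and 31.1 and 31.1 at day 4 at its promoter (2.45 ± 0.66, adjusted p = 0.0504). Junb, an AP-1 subunit, had 18.1 and 24.2 at day 0 and 82.5 and 53.8 at day 4 at its promoter (1.59 ± 0.54, adjusted p = 0.0782). Rela, the p65 subunit of NF-kappaB, had 11.2 and 9.46 at day 0 and 57.6 and 17.9 at day 4 at a peak 12191 bp from the start (1.65 ± 0.64, adjusted p = 0.102). All 3 were higher in both day 4 libraries and none was called.

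Weaker peaks of the same list were called at 4 genes, of 109 peaks in all (3.67% beside 2.33%). They are named after their calls were seen. Src encodes the tyrosine kinase that osteoclasts need for a ruffled border, and a peak 21248 bp upstream (chr2:157402931-157403160) had 0 and 4.2 at day 0 and 32.7 and 26.3 at day 4 (2.91 ± 0.75, adjusted p = 0.0449). Fosl2 encodes an AP-1 subunit that acts in osteoclasts, and a peak 32163 bp upstream (chr5:32104194-32104425) had 4.3 and 3.15 at day 0 and 34.2 and 27.5 at day 4 (2.46 ± 0.66, adjusted p = 0.049). Both were close to empty at day 0. Tfec, a relative of MITF, had 0.861 and 1.05 at day 0 and 48.2 and 21.5 at day 4 (3.53 ± 0.69, adjusted p = 0.0218). Id3, an inhibitor of helix-loop-helix factors, had 2.58 and 8.41 at day 0 and 49.8 and 32.3 at day 4 (2.50 ± 0.64, adjusted p = 0.0449). In all 4, as in 347 of the 348 called higher, the lowest day 4 level was over 2 times the highest day 0 level.

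Feedback genes and immediate early targets of ERK itself had a median of 0.90 over the strongest peaks of 24 of 30 genes, or −0.0048 with TMM. EdgeR called 0 of them, and 4 had an unadjusted p below 0.05. Spry2, an inhibitor of receptor tyrosine kinase signalling, had 13.8 and 3.15 at day 0 and 46.7 and 38.2 at day 4 (2.04 ± 0.64, adjusted p = 0.0679). Dusp4, a nuclear phosphatase of ERK, had 8.61 and 18.9 at day 0 and 52.9 and 47.8 at day 4 (1.73 ± 0.59, adjusted p = 0.0819). Egr2, an immediate early zinc finger factor, had 1.72 and 10.5 at day 0 and 32.7 and 19.1 at day 4 (1.77 ± 0.71, adjusted p = 0.111). The days did not overlap in these 3 peaks. Of all 99 peaks of the list 2 (2.02%) were called, beside 2.33% of all peaks. One lay 647 bp upstream of Klf6, a zinc finger factor gene, with 0 and 1.05 at day 0 and 35.8 and 27.5 at day 4 (3.63 ± 0.70, adjusted p = 0.0217), and the other 84453 bp upstream of Spred1, an inhibitor of RAS signalling to ERK, with 2.58 and 3.15 at day 0 and 28 and 26.3 at day 4 (2.53 ± 0.67, adjusted p = 0.049).

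Gene groups outside the osteoclast programme had medians in the same range. Strongest peaks of 18 inflammatory genes had a median log2 fold change of 0.89, those of 19 macrophage genes 0.98, of 17 V-ATPase and lysosome genes 0.61, of 5 oxidative metabolism genes 1.29 and of 11 housekeeping genes 1.08. With TMM these medians were −0.078, −0.034, −0.34, 0.38 and 0.15. EdgeR called 0 of these strongest peaks, beside 2.33% of all peaks called higher, and 6, 6, 6, 3 and 4 had an unadjusted p below 0.05. Strongest peaks were picked by level over all libraries, while peaks called higher had low day 0 levels. The share of 2.33% is therefore no baseline for strongest peaks. The median of the housekeeping genes was thus no lower than that of the osteoclast genes on either scale. Only 5 of 21 oxidative metabolism genes had a peak at all.

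In the inflammatory list the lowest p values were those of Tnfaip3, Il1a and Il6, while Ptgs2, Cp and Il12a had no peak. Tnfaip3, which encodes the NF-kappaB inhibitor A20, had 19.8 and 32.6 at day 0 and 114 and 63.3 at day 4 (1.68 ± 0.52, adjusted p = 0.0674). Il1a, a cytokine gene, had 13.8 and 15.8 at day 0 and 84 and 34.6 at day 4 (1.85 ± 0.59, adjusted p = 0.0684). Il6, another, had 9.47 and 11.6 at day 0 and 70.0 and 21.5 at day 4 (1.90 ± 0.64, adjusted p = 0.0791). All 3 were higher in both day 4 libraries and highest in replicate 1. In the macrophage list the lowest p values were those of Cx3cr1, Cd68 and Msr1. Cx3cr1, the fractalkine receptor gene, had 35.3 and 24.2 at day 0 and 128 and 77.6 at day 4 (1.70 ± 0.50, adjusted p = 0.0607). Cd68, a lysosomal glycoprotein gene, had 35.3 and 46.2 at day 0 and 99.6 and 123 at day 4 at its promoter (1.41 ± 0.47, adjusted p = 0.0787), and Msr1, a scavenger receptor gene, 25 and 21 at day 0 and 84 and 37 at day 4 (1.30 ± 0.56, adjusted p = 0.124). Of 93 macrophage list peaks 3 were called (3.23%), beside 2.33% of all peaks. One, intergenic and 314360 bp from the start of its nearest gene Maf, had 2.58 and 0 at day 0 and 26.4 and 38.2 at day 4. One in an intron of Runx1 had 8.61 and 3.15 at day 0 and 45.1 and 49 at day 4. One in an intron of Mrc1, the mannose receptor gene, had 5.17 and 9.46 at day 0 and 59.1 and 41.8 at day 4 (edgeR adjusted p = 0.0334, 0.0379 and 0.0411 in this order).

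Lysosomal and metabolic genes included peaks with low levels at day 0. Atp6v0d1, a V-ATPase subunit of most cells, had 10.3 and 7.36 at day 0 and 62.2 and 38.2 at day 4 (2.23 ± 0.61, adjusted p = 0.0514). Ctsz, a cathepsin gene, had 9.47 and 5.25 at day 0 and 70.0 and 14.3 at day 4 (2.18 ± 0.69, adjusted p = 0.0678), and Atp6v1a, the catalytic subunit of the V-ATPase, 45.6 and 29.4 at day 0 and 143 and 60.9 at day 4 (1.38 ± 0.52, adjusted p = 0.0979). For Ctsz most of the difference came from day 4 replicate 1. Nrf1, a factor of mitochondrial genes, had 7.75 and 7.36 at day 0 and 60.7 and 20.3 at day 4 (2.11 ± 0.64, adjusted p = 0.0642), and Cs, citrate synthase, 9.47 and 8.41 at day 0 and 40.4 and 21.5 at day 4 (1.56 ± 0.63, adjusted p = 0.111). Sdhb, a subunit of respiratory complex II, had 26.7 and 15.8 at day 0 and 62.2 and 49 at day 4 at its promoter (1.29 ± 0.55, adjusted p = 0.123). None of these was called. Of the housekeeping genes, Actb had 19.8 and 13.7 at day 0 and 57.6 and 75.3 at day 4 at a distal peak (1.85 ± 0.54, adjusted p = 0.0598), Rplp0 13.8 and 10.5 at day 0 and 49.8 and 39.4 at day 4 (1.70 ± 0.59, adjusted p = 0.0858) and B2m 29.3 and 15.8 at day 0 and 71.6 and 40.6 at day 4 (1.22 ± 0.56, adjusted p = 0.143). An intronic peak of Polr2a was the 1 called among 26 housekeeping peaks (3.85%, beside 2.33% of all peaks), with 2.58 and 4.2 at day 0 and 24.9 and 44.2 at day 4 (adjusted p = 0.0379).

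Marker genes of other marrow cells mostly lacked peaks. A peak was nearest to 2 of 10 osteoblast and stroma genes, 3 of 10 neutrophil genes and 2 of 12 lymphocyte genes. Defining genes such as Col1a1, Mpo, S100a8, Cd3e and Gata1 had none. EdgeR called 0 of the strongest peaks, beside 2.33% of all peaks called higher, and 1, 2 and 0 had an unadjusted p below 0.05. Here too that share is no baseline for peaks picked by their level. Of the neutrophil genes, Camp had 14.6 and 14.7 at day 0 and 76.2 and 45.4 at day 4 (adjusted p = 0.0623), Ltf 17.2 and 5.25 at day 0 and 48.2 and 20.3 at day 4 (adjusted p = 0.144) and Prtn3 11.2 and 21 at day 0 and 32.7 and 28.7 at day 4 (adjusted p = 0.293). Of the stroma genes, Runx2 had 21.5 and 12.6 at day 0 and 48.2 and 38.2 at day 4 (adjusted p = 0.153) and Pdgfrb 52.5 and 43.1 at day 0 and 93.3 and 70.5 at day 4 (adjusted p = 0.26). All 5 were higher in both day 4 libraries, as most peaks of the table were. Of the lymphocyte genes, Ms4a1 had 43.9 and 55.7 at day 0 and 73.1 and 86 at day 4 (adjusted p = 0.311) and Cd4 8.61 and 20.0 at day 0 and 31.1 and 19.1 at day 4 (adjusted p = 0.391). Their part in the shift was not tested.

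**Figure D4:**
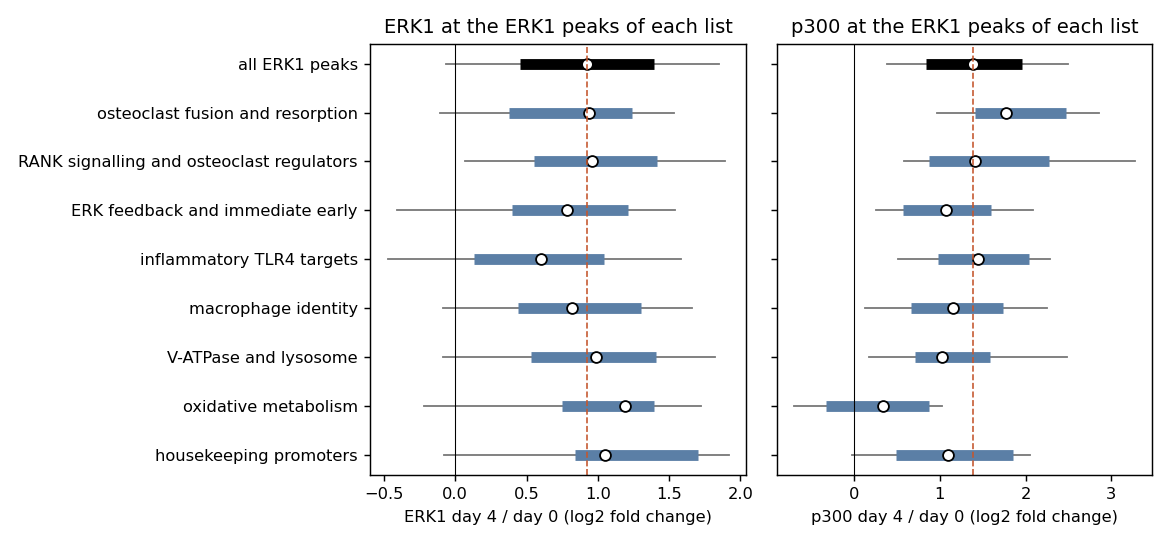
Log2 fold change between day 4 and day 0 over all peaks of each gene list, of ERK1 and of p300 at the same places; white points are medians, bars the middle 50% and lines the 10th to 90th percentiles. Dashed lines mark the medians over all ERK1 peaks, 0.93 for ERK1 and 1.39 for p300, and the osteoclast list lies at 0.94 and 1.77.

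The 10 peaks called higher with the lowest p lay below the median peak in both day 0 libraries, and 3 of them had no tags there. An intronic peak of Plxdc1, a plexin-domain gene (chr11:97971271-97971580), had 0 tags in both day 0 libraries and levels of 46.7 and 37 at day 4. With 3 tags over the group as the floor this was at least 29-fold higher (adjusted p = 0.0167). Peaks of Oaf and Herc1, also at 0 tags on day 0, were at least 25.2-fold and 22.4-fold higher (adjusted p = 0.0207 and 0.0207). Scarletltr, a noncoding RNA gene, had 0.861 and 0 at day 0 and 37.3 and 41.8 at day 4 at its peak (chr9:64092145-64092427) (3.96 ± 0.68, adjusted p = 0.0207). Nfkbid encodes the nuclear IkappaB protein IkappaBNS, and its promoter peak (chr7:30423127-30423480) had 2.58 and 2.1 at day 0 and 65.3 and 41.8 at day 4 (3.60 ± 0.64, adjusted p = 0.0217). Near 4930404N11Rik a pair of called peaks lay side by side. One had 8.61 and 16.8 at day 0 and 126 and 113 at day 4 (3.04 ± 0.53, adjusted p = 0.0207), and the other, 443 bp from the start and among the 5 highest of the table at day 4, 34.4 and 31.5 at day 0 and 199 and 139 at day 4 (2.28 ± 0.46, adjusted p = 0.028).

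The remaining 4 of the 10 were distal or intronic. The peak of 1700031P21Rik had 0.861 and 0 at day 0 and 63.8 and 35.8 at day 4 (4.27 ± 0.67, adjusted p = 0.0167) and that of Mamdc2 3.44 and 6.3 at day 0 and 82.5 and 63.3 at day 4 (3.41 ± 0.60, adjusted p = 0.0207). The peak of 1110004F10Rik had 0.861 and 0 at day 0 and 46.7 and 26.3 at day 4 (3.84 ± 0.70, adjusted p = 0.0217), and that of Slc29a1, a nucleoside transporter gene, 2.58 and 1.05 at day 0 and 43.6 and 44.2 at day 4 (3.50 ± 0.64, adjusted p = 0.0217). AP-1 letters were in 4 of the 10 windows, 6 had a p300 peak within 500 bp, and 5 of these were called higher in p300. Among all 348 called higher, 29 had 0 tags in both day 0 libraries, and median levels were 2.58 and 3.15 at day 0 and 42 and 28.7 at day 4.

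12 genes had more than 1 called peak, and they are named after their values were seen. Mmp12, which encodes the macrophage metalloelastase, had 3. One, 12555 bp from the start and annotated to the 3′ untranslated region, had 4.3 and 4.2 at day 0 and 45.1 and 39.4 at day 4 (2.78 ± 0.62, adjusted p = 0.0334). Another, at 14110 bp, had 10.3 and 12.6 at day 0 and 54.4 and 60.9 at day 4 (2.13 ± 0.57, adjusted p = 0.0492), and the last, at 14881 bp, 0.861 and 3.15 at day 0 and 52.9 and 20.3 at day 4 (3.21 ± 0.71, adjusted p = 0.0334). Of a pair at Gpnmb, a glycoprotein gene of osteoclasts and macrophages, the downstream peak had 3.44 and 3.15 at day 0 and 40.4 and 20.3 at day 4 (adjusted p = 0.0487) and the upstream one 13.8 and 6.3 at day 0 and 62.2 and 50.2 at day 4 (adjusted p = 0.049). These were the 2 called of 67 lysosome list peaks (2.99%, beside 2.33% of all peaks). Of a pair at Lgals3, galectin-3, the downstream peak had 0.861 and 0 at day 0 and 32.7 and 21.5 at day 4 (adjusted p = 0.0296) and the upstream one 2.58 and 1.05 at day 0 and 26.4 and 23.9 at day 4 (adjusted p = 0.0448). Il13ra1, an interleukin-13 receptor chain gene, had 0 tags at day 0 in its pair, which were at least 19.5-fold and 19-fold higher (adjusted p = 0.0217 and 0.0217). Of a pair in introns of Flt1, a VEGF receptor gene, the nearer peak had 0 and 1.05 at day 0 and 56 and 19.1 at day 4 (adjusted p = 0.0217) and the farther one 1.72 and 0 at day 0 and 42 and 16.7 at day 4 (adjusted p = 0.0334). The other genes with a pair were 4930404N11Rik, Tpra1, 4933427D06Rik, Ppp1r3b, Apbb2, 4930563J15Rik and Fam20c.

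The 4 peaks called lower had 0 tags in both day 4 libraries. Il6st encodes gp130, the shared receptor chain of interleukin-6 cytokines, and a peak 70364 bp upstream (chr13:112393573-112393839) had 15.5 and 20.0 at day 0. It was at least 8.64-fold lower at day 4 (adjusted p = 0.0444). Ncoa7, a nuclear receptor coactivator gene, had 21.5 and 21 in an intron, Znrf2, a ubiquitin ligase gene, 26.7 and 14.7, and 4930459C07Rik 14.6 and 26.3. They were at least 10.5, 10.5 and 9.8-fold lower (adjusted p = 0.0347, 0.0379 and 0.0379). No p300 peak lay within 500 bp of any of the 4.

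The highest ERK1 levels of the table were at ferritin genes, at intergenic peaks and, at day 4, at the promoter peak near 4930404N11Rik given above. Ftl1 and Fth1 encode the light and heavy chains of ferritin, the iron store, and their peaks were annotated at transcript ends. Ftl1 (chr7:45457045-45457687) had 99 and 116 at day 0 and 313 and 228 at day 4 (1.32 ± 0.40, adjusted p = 0.0639), and Fth1 (chr19:9985788-9986341) 72.3 and 110.3 at day 0 and 263 and 188 at day 4 (1.28 ± 0.42, adjusted p = 0.0727). Both were higher in both day 4 libraries and not called. Ferritin genes have near-identical copies in the genome, so their tags are uncertain. The other peaks among the 5 highest at day 0 had 119.7 and 145 at day 0 and 140.0 and 196 at day 4 near D730003I15Rik, 117 and 93.5 at day 0 and 160.2 and 139.8 at day 4 near E230025N22Rik and 93.8 and 87.2 at day 0 and 166 and 147 at day 4 near Plekho2 (adjusted p = 0.53, 0.373 and 0.196). For D730003I15Rik the days overlapped.

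p300, a histone acetyltransferase found at active enhancers, was measured on the same days in other libraries. In its own table of 20143 peaks, 12508 were called higher (62.1%) and 48 lower (0.238%), at a median log2 fold change of 1.65. With TMM p300 had 1773 calls higher and 770 lower, where ERK1 had 0. A p300 peak lay within 500 bp of 8504 ERK1 peaks (56.9%) and of 79.3% of those listed at both days. At the 34 osteoclast gene peaks that had one, the p300 median was 1.77, beside 1.39 at all matched ERK1 peaks. Of these 34, 27 were called higher in p300, beside 54.9% of all matched ERK1 peaks. All 15 strongest ERK1 peaks of osteoclast genes had one, and 13 of these were called higher in p300. These p300 calls are on library totals, and their excess over 54.9% was not tested.

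The same osteoclast places can be set side by side in both marks. At Acp5 p300 levels were 9.67 and 8.52 at day 0 and 90.9 and 82.8 at day 4 (2.95, adjusted p = 0.000402). At Ctsk they were 22.9 and 42.6 at day 0 and 146 and 118 at day 4 (2.02, adjusted p = 0.00112), and at Ocstamp 23.7 and 6.39 at day 0 and 123 and 104 at day 4 (2.58, adjusted p = 0.000806). In each the log2 fold change was larger in p300 than in ERK1, on library totals. At Dcstamp, Mmp9 and Tnfrsf11a, where ERK1 levels of the days overlapped or lay close, p300 had log2 fold changes of 2.14, 2.55 and 1.75 (adjusted p = 0.0011, 0.000454 and 0.00302). At the called Src peak p300 had 4.4 and 0 at day 0 and 112 and 110.0 at day 4 (4.44, adjusted p = 0.000128), and at the Id3 peak 0.879 and 0 at day 0 and 41.1 and 31.8 at day 4 (3.75, adjusted p = 0.000863). At the Nfkbid promoter p300 had 22 and 19.2 at day 0 and 29.3 and 45.4 at day 4 (0.77, adjusted p = 0.191) and was not called. No p300 peak lay near the called peaks of Fosl2 and Plxdc1.

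Peak by peak the changes of ERK1 and p300 were weakly related. Pearson's r of the log2 fold changes was 0.13 over 8504 matched peaks. ERK1 had a median of 0.91 where p300 was called higher, 0.84 where it was not called and 1.00 where it had no peak. Of the ERK1 peaks called higher, 155 (44.5%) had a p300 peak, at a p300 median of 1.59, and 99 of these (63.9%) were called higher in p300, beside 54.9% of all matched ERK1 peaks. These are descriptions, and the differences were not tested.

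At a few places p300 fell. Only 25 ERK1 peaks lay at a p300 peak called lower, 6 of them at Neat1, a nuclear noncoding RNA gene, 3 at Mmp12 and 2 at Fth1. ERK1 was called higher at 3 of these, 2 at Mmp12 and 1 at Mmachc, a cobalamin processing gene. At the Mmp12 peak 14110 bp from the start p300 levels were 73.8 and 63.9 at day 0 and 33.2 and 21.6 at day 4 (−1.26, adjusted p = 0.0198), and at that 14881 bp from the start 33.4 and 17 at day 0 and 4.89 and 6.81 at day 4 (−1.85, adjusted p = 0.0125). At Mmachc ERK1 had 8.61 and 6.3 at day 0 and 68.5 and 34.6 at day 4 (2.46 ± 0.62, adjusted p = 0.0442), and p300 68.6 and 100.1 at day 0 and 28.4 and 25 at day 4 (−1.55, adjusted p = 0.0059). In these 3 peaks the days did not overlap in either factor, and the directions were opposite. At Fth1 p300 had 221 and 119 at day 0 and 93.9 and 72.6 at day 4 (−1.04, adjusted p = 0.021), while ERK1 was not called. At Ftl1 p300 had 501 and 400.3 at day 0 and 275 and 268 at day 4 (−0.73, adjusted p = 0.042), under the 2-fold minimum.

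ERK1 was also profiled in bone marrow-derived macrophages (BMDMs) with vehicle (Veh) or the TLR4 agonist Kdo2-lipid A (KLA). There 2883 of 27931 peaks were called higher with KLA (10.3%) and 708 lower (2.53%), at a median of 0.24. A peak of that table lay within 500 bp of 67.4% of the osteoclast ERK1 peaks and of 48.3% of those called higher at day 4. At these 168 peaks the KLA median was 0.10, beside 0.069 at all matched peaks, and 12 (7.14%) were called higher with KLA, beside 5.17%. Pearson's r of the log2 fold changes was 0.0092 over 10082 peaks. Klf6 and Maf peaks were called higher in both tables, with KLA log2 fold changes of 2.65 and 1.87 (adjusted p = 0.0324 and 0.0121), and the Runx1 peak was lower with KLA at −1.47 (adjusted p = 0.0242). In the inflammatory list 14 of 53 matched peaks were called higher with KLA at a median of 0.84. With RANKL edgeR called 0 of 61 at a median of 0.60, beside 2.33% of all peaks called higher. Cells, stimulus and time all differ between the tables, and their difference was not tested.

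Most osteoclast ERK1 peaks lay at sites of macrophage factors. Within 500 bp, 82.6% had a BMDM peak of p65, 81.2% of PU.1, 72.9% of Fosl2, 88.7% of the corepressor NCoR, 87.6% of its deacetylase HDAC3 and 74.4% of the coactivator PGC1β. These tables differ in their numbers of peaks and join vehicle and KLA. Peaks with a high level were shared more often: in the 25% of peaks with the highest day 4 level 93.3% lay near Fosl2 and 95.9% near p65, and in the lowest 25% 53.3% and 69.2%. Of the peaks called higher, 63.2% lay near Fosl2, 69.5% near PU.1 and 79% near NCoR. The Ctsk, Ocstamp, Atp6v0d2, Src, Fosl2 and Scarletltr peaks lay near all 6 factors, and the Plxdc1 and Il6st peaks near none.

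PU.1, AP-1 and C/EBP letters were the most frequent of the searched motifs in ERK1 peaks. The motifs differ in length, and no rate by chance was computed. Of 14955 windows of 200 bp, 25.3% held PU.1, 24.3% AP-1 and 18.5% C/EBP letters, against 8.91%, 5.54% and 7.12% of 27025 RefSeq promoter windows of that length (GRCm38). As 76.8% of the ERK1 peaks were distal, promoters are an unlike background. ERK1 peaks within 2 kb of a start held them in 17.9%, 10.9% and 11.5%. In p300 peaks the shares were 21.8%, 36.7% and 12.5%. Distal ERK1 peaks held AP-1 in 28.3%, and in 33.5% of the highest 25% and 22.2% of the lowest 25% by day 4 level. By list, 22.3% of distal peaks at day 0 only, 28.2% at day 4 only and 33.1% at both held it. Of the distal peaks called higher, 31.4% held AP-1, 22.6% PU.1 and 17.2% C/EBP, beside 28.3%, 27.5% and 20.7% of all distal peaks.

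Other motifs were less frequent. RUNX letters (TGTGGTT) were in 8.9% of all peaks and 7.18% of those called higher, NFAT letters (TGGAAAA) in 4.89% and 6.03%, the E-box TCATGTG in 6.47% and 6.32%, and the kappaB motif in 3.39% and 2.87%. ETS (CCGGAAG) and SP/KLF (GGGCGGG) letters, frequent in promoters, were in 4.77% and 9.25% of all peaks and in 1.72% and 4.89% of those called higher, of which 85.1% were distal, beside 76.8% of all. In RefSeq promoters these 6 shares were 3.55%, 4.46%, 2.39%, 2.94%, 7.57% and 23.1%. The ISRE, CArG, CRE, ERRE, NRF1 and TCACGTG motifs were each in under 4% of all peaks. A match is a description of letters and was not tested.

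**Figure D5:**
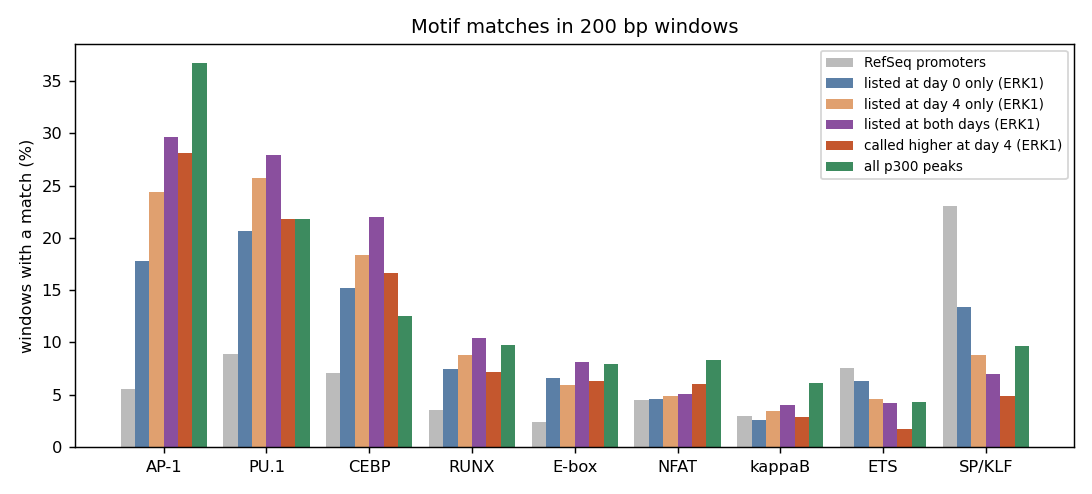
Share of 200 bp windows (%) with a match to each motif on either strand, in RefSeq promoters, in ERK1 peaks by list, in ERK1 peaks called higher and in all p300 peaks. AP-1 stands at 5.54% of promoters, 29.6% of ERK1 peaks listed at both days and 36.7% of p300 peaks. Of all ERK1 peaks 76.8% were distal, unlike the promoters.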

How the data were processed

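Raw tag counts per peak were deposited by the authors, unnormalised, in mm10 coordinates. Per the labels and methods, reads were aligned with Bowtie2, peaks called with HOMER, kept by IDR between the most correlated replicates and merged across days, and tags counted with HOMER, at most 3 per position per the file headers. Tool versions are not given in the sources used here. Capping and merging bound the levels of the strongest peaks and make the list of a peak depend on its level.

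Counts were fitted with edgeR 4.0.16 (R 4.3.3, quasi-likelihood, two-sided, prior count 2), with the library totals of the file headers as library sizes, for peaks with at least 4 tags in 1 library. SEs are the log2 fold change over the square root of F. Alternatives used TMM, tags in peaks, DESeq2 1.42.0 and left-out libraries. Nothing says that replicates came from separate mice, so p-values measure the spread between these samples. The code was tested on simulated data.

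Peaks of other tables were matched within 500 bp of the centre; from the macrophage tables of other factors only positions were used. Named peaks are the strongest peak of chosen osteoclast and KLA genes, the 10 called with the lowest p per direction, the 3 lowest p per list, and the 5 highest per day. A peak bears the name of its nearest gene, which can be far. The peaks given for Spry2, Tnfaip3, Tfec, Il6 and Egr2 lay 117201, 68539, 65636, 64773 and 50228 bp from the start. The values of 1 marker list are not reported here. Members, lists and rules were chosen with earlier results of these data known.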

Additional observations from a re-analysis of the deposited data

How the results depend on the processing

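EdgeR with TMM, with tags in all peaks or with DESeq2's size factors, and DESeq2's Wald test, each called 0 ERK1 peaks in both directions, at medians of 0.034, 0.083, 0.034 and 0.037; by construction these take out the shift shared by the peaks. At an unadjusted p below 0.05, edgeR with DESeq2's size factors had 781 higher peaks and 1040 lower ones. Peaks with no overlap and over 2-fold were 640 higher and 652 lower with TMM, and 704 and 594 with tags in all peaks. No filter and no fold minimum gave the same 348 and 4, filterByExpr 361 and 6, and distal peaks alone 276 and 4. Leaving out each library gave 0 to 1160 higher, 0 to 8 lower, medians of 0.66 to 1.13, and 3509 to 6851 higher and 191 to 638 lower without overlap. Of 38 named peaks called higher with header totals that had tags at day 0, 34 stayed called under the replicate block, 30 and 31 without day 0 replicate 1 and 2, and 0 without either day 4 library.

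With the replicate number as a block, 426 ERK1 peaks were higher, 289 of them among the 348, and 2 lower. The numbers do not pair the samples: day 4 replicate 2 is described as a replicate 3, and deviations of same-numbered libraries from their day means had r = −0.0068 over 14957 peaks. The block gave 8374 higher and 18 lower for p300, and 2426 and 543 for KLA.

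p300 had 1773 higher and 770 lower with TMM and 555 and 232 with DESeq2, and 3006 to 14844 and 6 to 214 without single libraries. KLA had 1096 lower with TMM and 1265 with DESeq2, and 692 to 3310 higher and 225 to 683 lower without single libraries. At ERK1 peaks called higher the p300 median was 1.54 to 1.89 and the KLA median 0.0043 to 0.21 without single libraries. TMM, and leaving out either day 4 library, give these medians no value, since 0 ERK1 peaks are then called.

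Log2 fold changes that changed sign were, with TMM, Ctsk −0.015, Prtn3 −0.0026, Dcstamp −0.53, Mmp9 −0.35, Nfatc1 −0.44, Tnfrsf11a −0.61, Pdgfrb −0.19, Ms4a1 −0.23, Cd4 −0.14, D730003I15Rik −0.54, E230025N22Rik −0.44 and Plekho2 −0.16; with tags in all peaks, Dcstamp −0.47, Mmp9 −0.30, Nfatc1 −0.39, Tnfrsf11a −0.56, Pdgfrb −0.14, Ms4a1 −0.18, Cd4 −0.090, D730003I15Rik −0.49, E230025N22Rik −0.39 and Plekho2 −0.11; and with DESeq2, Ctsk −0.015, Prtn3 −0.0034, Dcstamp −0.55, Mmp9 −0.36, Nfatc1 −0.47, Tnfrsf11a −0.64, Pdgfrb −0.20, Ms4a1 −0.23, Cd4 −0.16, D730003I15Rik −0.55, E230025N22Rik −0.45 and Plekho2 −0.16. Without single libraries Mmp9 ran from −0.39 (without day 4 replicate 1) to 1.32 and Nfatc1 from −0.36 (without day 4 replicate 2) to 0.83. None of these peaks was called. The median peak held 17 to 25 tags per library.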

Other observations

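The lncRNA gene Neat1, which scaffolds nuclear paraspeckles, held 6 of the 25 ERK1 peaks at which p300 was called lower. Their ERK1 log2 fold changes ran from −0.39 to 1.86, none called (lowest adjusted p = 0.0691), and the p300 log2 fold changes from −2.80 to −1.28. The ERK1 peaks 4934 and 5182 bp from the start had the same p300 values, so the 6 may match fewer p300 peaks. At the peak 2777 bp from its start ERK1 had 9.47 and 9.46 at day 0 and 31.1 and 49 at day 4, and p300 109.9 and 46.8 at day 0 and 14.7 and 19.3 at day 4. These places were picked after the values were seen.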
